A study of Rattus norvegicus with 32 samples.

Results

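Choline uptake and phosphatidylcholine synthesis were examined in the hippocampus of adult rats through 10 genes, taken by symbol from the 32883 gene entries of each count table. The genes were Slc44a1 and Slc44a2, the choline kinases Chka and Chkb, the cytidylyl transferases Pcyt1a and Pcyt1b, the phosphotransferases Chpt1 and Cept1, the methyltransferase Pemt, and Chdh. Each symbol had a single entry in each table, and all 10 genes passed the filter on low counts in every fit. The animals were Sprague-Dawley rats killed at P65, 4 per group and sex, 32 rats in all. Control rats were iron-sufficient throughout (IS). Rats of the FID group were formerly iron-deficient: their dams ate an iron-deficient diet from early gestation through the first postnatal week and an iron-sufficient diet afterwards, and the rats are described as iron-repleted at P65. In the ISch and FIDch groups the dam's diet was also supplemented with choline during part of gestation. The choline was given to the mothers, so every choline comparison is one of adult offspring long after the supplement. The methods describe male rats, 1 per litter, and take the RNA-seq from an earlier study, so separate litters are not established for these libraries. The females carry the same diet labels, and whether they came from the same litters was not given in the sources used here.

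Choline enters cells through transporters that include the choline transporter-like proteins encoded by Slc44a1 and Slc44a2. In the CDP-choline pathway it is phosphorylated by choline kinase, activated to CDP-choline by CTP:phosphocholine cytidylyl transferase, the regulated step, and joined to diacylglycerol by choline phosphotransferase to give phosphatidylcholine, the main phospholipid of cell membranes. Phosphatidylethanolamine N-methyltransferase, the product of Pemt, makes phosphatidylcholine by a separate route that is best known from liver. Choline dehydrogenase, the product of Chdh, instead commits choline to oxidation to betaine, a methyl donor. In brain, choline is also the precursor of acetylcholine.

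A gene was called changed at the criterion of the study, an absolute log2 fold change over 0.2 with an unadjusted p under 0.05. The Benjamini-Hochberg adjusted p over all genes tested is given beside it. In the comparisons of choline with no choline (IS rats, FID rats and their average, in each sex), 4 of the 10 genes were called at least once. Any single comparison of these called 6.50% to 13.0% of all genes tested. The share of all genes called at least once was not examined, so the pooled count does not show an effect on the pathway. The 250 bases before the annotated start of each of these 4 genes are shown as a description. Which start the counted transcripts used was not examined. They are RefSeq sequences of the assembly GRCr8, read 5′ to 3′ in the direction of the gene: Chka at chr1:210505865-210506114 on the plus strand, Pemt at chr10:45341948-45342197, Chpt1 at chr7:24802522-24802771 and Cept1 at chr2:196723659-196723908, the last 3 on the minus strand. Capitals mark matches on either strand to the GC box GGGCGG, the CCAAT box CCAAT and the letters ACGTG.
Chka: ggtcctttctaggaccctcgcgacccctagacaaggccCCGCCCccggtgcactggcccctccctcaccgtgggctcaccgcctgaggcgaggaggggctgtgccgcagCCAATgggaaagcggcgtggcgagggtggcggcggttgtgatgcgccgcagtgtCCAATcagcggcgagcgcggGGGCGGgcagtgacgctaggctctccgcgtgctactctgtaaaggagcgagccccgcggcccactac
Pemt: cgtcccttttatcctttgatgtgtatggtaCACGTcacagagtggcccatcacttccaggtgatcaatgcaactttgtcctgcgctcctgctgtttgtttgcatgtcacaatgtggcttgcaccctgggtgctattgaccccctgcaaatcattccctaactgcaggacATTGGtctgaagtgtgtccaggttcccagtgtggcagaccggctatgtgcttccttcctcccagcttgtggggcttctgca
Chpt1: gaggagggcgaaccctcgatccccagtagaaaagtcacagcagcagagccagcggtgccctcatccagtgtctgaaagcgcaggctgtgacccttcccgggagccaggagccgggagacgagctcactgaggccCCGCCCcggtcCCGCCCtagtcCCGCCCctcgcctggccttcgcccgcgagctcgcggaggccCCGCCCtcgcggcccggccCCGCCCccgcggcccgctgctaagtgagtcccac
Cept1: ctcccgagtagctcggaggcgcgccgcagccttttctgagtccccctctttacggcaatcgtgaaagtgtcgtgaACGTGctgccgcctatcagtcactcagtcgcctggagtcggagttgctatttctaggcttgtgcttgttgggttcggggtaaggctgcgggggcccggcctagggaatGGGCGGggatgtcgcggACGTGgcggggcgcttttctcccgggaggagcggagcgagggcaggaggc

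The Chpt1 sequence held 5 GC boxes, Chka 2 and Cept1 1, and Pemt held none. Chka carried 2 CCAAT boxes and Pemt 1, and ACGTG was found 2 times before Cept1 and 1 time before Pemt. Of 33469 sequences of the same length before rat genes, 30.5% held GGGCGG, 34% held CCAAT and 16.6% held ACGTG. None of the 4 held the E-box CACGTG, which contains ACGTG and was present in 5.59%, or the TATA box TATAAA, present in 12.9%. The GC content was 70.8% for Chka, 72.8% for Chpt1 and 64.4% for Cept1 with 24 to 26 CpG dinucleotides each, and 52.4% with 4 CpG dinucleotides for Pemt, against medians of 51.2% and 5 over all these sequences. Pemt thus stood apart from the other 3 in base composition. All 10 genes had such a sequence, with GC contents from 52% for Chkb to 81.2% for Slc44a1. No binding or chromatin data were used here, so the matches describe letters and not sites.

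Libraries held 3515806 to 9517503 counts in males and 18439999 to 26616318 in females. All males belong to sequencing batch I and all females to batch II. Differences of sex and of batch cannot be told apart, and each sex was analysed within its own batch. Levels are given as counts normalized to library size (CPM, with TMM factors) and were not compared between genes because gene lengths were not used here. Across libraries the raw counts ran from 11 to 37 for Pemt and from 14 to 45 for Chdh in males, and from 42 to 86 and 57 to 115 in females. The other 8 genes had at least 93 counts in every library. The hippocampal label held, with summed markers of hippocampal fields at 748 to 1170 CPM in every library, although Spink8, one of the 5, was at 0 in 6 male and 1 female libraries. Some libraries stood apart. The male FID replicate 4 held choroid plexus markers at 391 CPM summed, against 2.51 to 6.06 CPM in the 12 male libraries of the other 3 groups. The median of the male FID group was 13.1 CPM and its lowest library was at 6.12 CPM. Male FIDch replicate 2 was the shallowest library, and it and male ISch replicates 1 and 2 carried library names of another form. In females the first principal component of the 16 libraries (18.3% of the variance) separated all 8 choline libraries from all 8 others. The second component (10.4%) set 4 choline libraries whose names carry the numbers 16 to 18 (ISch replicate 1 and FIDch replicates 1 to 3) apart from the other 4. Results are given with and without these libraries where they moved. Leaving out those numbered 16 to 18 leaves female FIDch with replicate 4 alone. Replicate 4 differed more from the rest of its group than any other library did. Its pairs had a chi-square per gene of raw counts of 22.4 to 25.2, against at most 14.3 for any other pair within a group.

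In IS rats, prenatal choline was followed by no called change among the 10 genes in either sex. Over all genes tested, 8.06% were called in males and 10.3% in females in this comparison. The median log2 difference of the 10 genes was 0.02 in males and -0.06 in females. The largest in males was that of Chka, which encodes the alpha choline kinase, with 36.9, 33.6, 31.4 and 40.7 CPM in ISch and 47.7, 47.4, 38.8 and 31.6 in IS. The highest 2 libraries were IS, but the ranges overlapped, and the log2 difference was -0.22 with a 95% interval of -0.49 to 0.06. Without IS replicate 4, the lowest of its group, Chka met the criterion at -0.33 with an adjusted p of 0.456. In females the same gene differed by 0.12 in the other direction (95% interval -0.02 to 0.27), and Pemt had the largest difference, -0.25 (-0.58 to 0.08). Slc44a1, the plasma membrane and mitochondrial choline transporter, differed by 0.12 (-0.03 to 0.27) in males and -0.05 (-0.16 to 0.06) in females, and Pcyt1a, the main cytidylyl transferase, by 0.00 (-0.14 to 0.13) and 0.02 (-0.09 to 0.13). The fitted differences of the other genes ran from -0.06 to 0.16 in males and from -0.16 to 0.06 in females.

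In male FID rats, the genes called with choline both encode enzymes of the final step of the pathway. Cept1, whose enzyme forms both phosphatidylcholine and phosphatidylethanolamine, fell by 0.28 on the log2 scale (SE 0.086), and Chpt1, whose enzyme forms phosphatidylcholine alone, fell by 0.24 (SE 0.10). These were 2 of 10 genes called, both lower, where 13.0% of all genes tested were called. Cept1 measured 39.1, 35, 39.1 and 33.7 CPM in FIDch and 47.5, 44.9, 38.9 and 46.6 in FID, so that the groups overlapped only through FID replicate 3. The group means were 36.7 ± 2.82 and 44.5 ± 3.86 CPM (SD, n = 4). Its adjusted p was 0.128 by edgeR, and the exact permutation p was 0.086 (2-sided), where 0.029 is the smallest that 4 against 4 allows. Chpt1 measured 26.4, 35.6, 36.7 and 32 CPM in FIDch and 40.2, 41.6, 35.2 and 35.8 in FID. Here 2 FIDch libraries lay within the FID range, and FIDch replicate 1 was the lowest of all. The adjusted p was 0.254 and the exact permutation p 0.14. Neither gene therefore had an adjusted p under 0.05.

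The 2 calls differed in how far they rested on single libraries. Cept1 kept its call in all 14 alternatives, at -0.34 to -0.22. Chpt1 kept it in 7 of 14 and missed it without FID replicate 1, FID replicate 2, FIDch replicate 1 or FIDch replicate 4, in DESeq2, with a replicate block and with the 4 groups in one fit. Without FIDch replicate 1 its difference was -0.14. Without FID replicate 4, the library with the most choroid plexus RNA, Cept1 differed by -0.25 and Chpt1 by -0.27, both still at the criterion. Leaving it out does not level the groups, since every male FID library held more of the choroid plexus markers than any FIDch library. Over all libraries the summed choroid plexus markers were 6.12 to 391 CPM in male FID and 2.68 to 4.8 in FIDch, with 1 of the 5 genes testable and called lower, and Ttr, Kl, Clic6 and Kcnj13 each at 0 in at least 1 male library. The summed level of the 6 neuron markers was also lowest in male FIDch, at 6890 to 7130 CPM. It was 7230 to 7770 CPM in FID, 7190 to 7520 in ISch and 7350 to 7810 in IS. In FIDch against FID 1 of 6 was called lower, where 13.0% of all genes were called. None was at 0 in any library. The markers did not move as a set: Snap25 was at 2040 to 2100 CPM in FIDch and 2231 to 2699 in FID. Rbfox3 leaned the other way, at 124 to 137 and 116 to 125 CPM, and the ranges of all markers but Snap25 overlapped. The part of the lower neuron sum in the Cept1 and Chpt1 results was not tested. By the RefSeq annotation, Cept1 overlaps Dram2, and Chpt1 overlaps Gnptab and Sycp3, and a read in a shared stretch cannot be assigned without strand, which was not given in the sources used here. In this comparison Dram2 differed by -0.25 (SE 0.14, adjusted p 0.382), Gnptab by -0.08 and Sycp3 by -0.05, none of them called.

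Among the other steps in male FID rats, the transporter gene Slc44a2 was at 70.6, 85.6, 75.6 and 77.3 CPM with choline and 69.8, 63.8, 68.1 and 70.7 without. Its difference of 0.17 (SE 0.070, p 0.034) lay below the fold limit. Without FIDch replicate 1 it was 0.21 and met the criterion. Both kinases and both cytidylyl transferases differed by 0.06 or less in size, with intervals that reached no further than -0.24 or 0.22, and Slc44a1 differed by -0.10. Pemt (-0.22, 95% interval -0.67 to 0.22) and Chdh (0.05, -0.41 to 0.51) had wide intervals at their low counts.

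**Figure D1:**
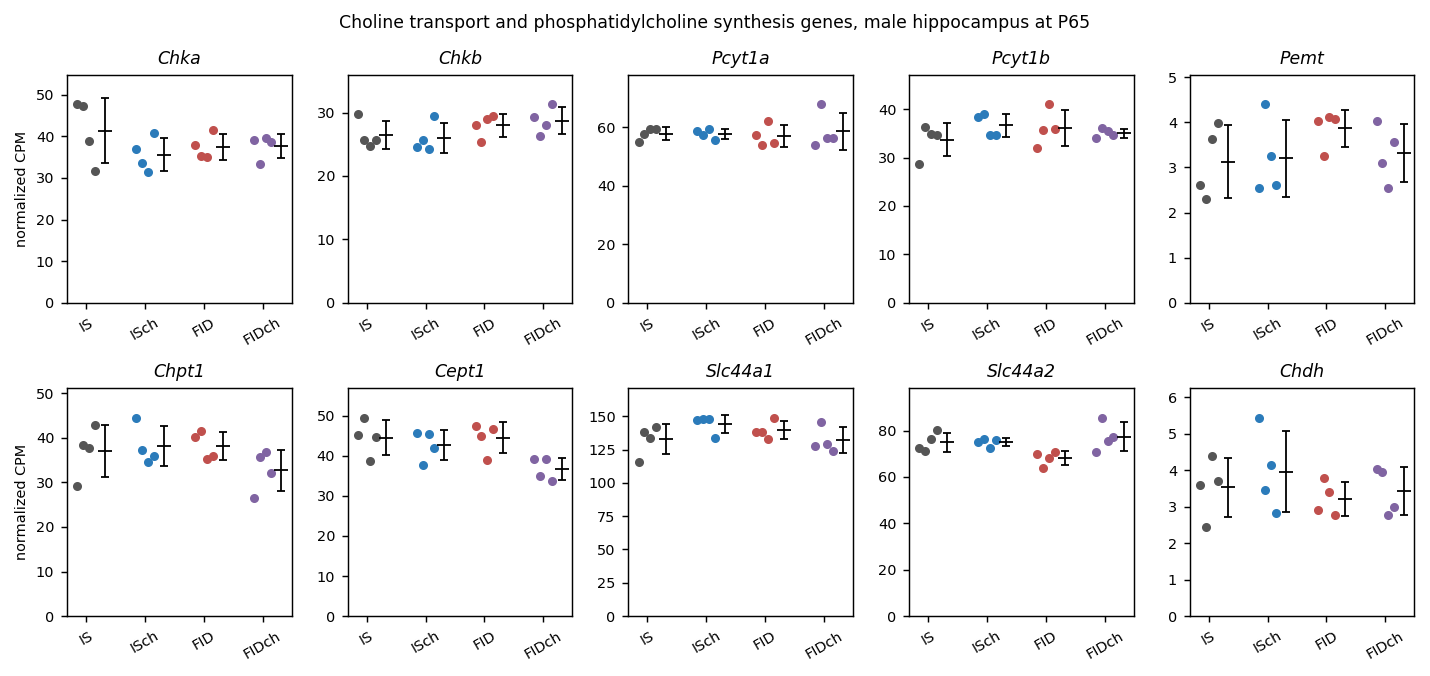
Normalized counts (CPM) of the 10 genes in each male library (points, 4 rats per group) for IS, ISch, FID and FIDch, with the mean and SD as bars beside them and axes from 0. Cept1 averaged 36.7 CPM in FIDch and 42.6 to 44.5 CPM in the other 3 groups.

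In female FID rats, the genes called with choline were a kinase gene and Pemt. Chka rose by 0.26 on the log2 scale (SE 0.076) and Pemt fell by 0.44 (SE 0.16), 2 of the 10 genes, where 12.7% of all genes tested were called. Chka was at 32.6, 31.9, 30.2 and 35.3 CPM in FIDch and 24.8, 27.7, 30.4 and 25.4 in FID. The groups met only at FID replicate 3. The adjusted p was 0.104 and the exact permutation p 0.057. Pemt was at 2.79, 3.05, 2.79 and 2.5 CPM in FIDch and 3.49, 4.24, 4.32 and 3.1 in FID. All 4 FIDch libraries lay below all 4 FID libraries, with an exact permutation p of 0.029, the smallest possible here, and an adjusted p of 0.172. The other 8 genes differed by at most 0.13 in size. Cept1 and Chpt1, the genes called in males, differed by 0.02 (-0.10 to 0.15) and -0.06 (-0.22 to 0.11). A difference between the sexes was not tested within FID rats.

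The Chka call held in 14 of 14 alternatives. That of Pemt held in 11 and was missed without FID replicate 2 (-0.38) or FID replicate 3 (-0.37), the 2 libraries with the most Pemt. It was also missed when the 4 libraries numbered 16 to 18 were left out (-0.60, p 0.054), which leaves a single FIDch library. In that fit 25.3% of all genes were called, and of the 10 genes 3 were: Chka at 0.38, Pcyt1a at -0.26 and Pcyt1b at -0.35. The last 2 rested on FIDch replicate 4, which had the lowest level of both in its group. Marker levels of cell types in all female FID and FIDch libraries were as follows. The 7 microglial markers summed to 238 to 261 CPM in female FID and 221 to 229 in FIDch, with 1 of 7 called lower. The 4 markers of oligodendrocyte precursors summed to 208 to 213 and 170 to 199 CPM, with 2 of 4 called lower. Of 6 astrocyte markers 2 were called higher, with the list at 3270 to 3490 CPM in FID and 3400 to 3580 in FIDch. The astrocyte list did not move as a set. Aqp4 was at 632 to 659 CPM in FID and 759 to 894 in FIDch, while Gja1 leaned the other way, at 469 to 502 and 448 to 494. Of 4 hippocampal field markers tested 1 was called higher, but the summed list did not rise. It was at 915 to 972 CPM in FID (median 936) and 748 to 1150 in FIDch (median 878). In FIDch against FID with all libraries, 12.7% of all genes were called. None of the microglial, precursor and astrocyte markers was at 0 in any library. Their part in the Chka and Pemt results was not tested, and in whole tissue fewer cells of a type and less RNA per cell cannot be told apart.

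Averaged over iron status, the choline effect on Pemt in females was the only one of the 10 genes to have both a call and an adjusted p under 0.05 in any comparison. Pemt fell by 0.34 (SE 0.099, adjusted p 0.038), and 12.1% of all genes tested were called in this comparison. The 8 choline libraries measured 2.23 to 3.05 CPM and the 8 others 2.73 to 4.32 CPM. The call held in 21 of 21 alternatives at -0.43 to -0.31, with adjusted p from 0.0233 to 0.0816, under 0.05 in 7 of them. Chka had a smaller adjusted p, 0.0218, but its difference of 0.20 (SE 0.051; 0.1963 before rounding) lay just under the fold limit. It passed that limit in 8 of 21 alternatives, at 0.17 to 0.28 over all of them. Its levels were 24.8 to 30.4 CPM in the 8 libraries without choline and 27.2 to 35.3 CPM in the 8 with it. Chkb, the beta kinase gene, differed by -0.13 (SE 0.057, adjusted p 0.183), so that the fitted values of the 2 kinase genes had opposite signs in females. The other 7 genes ran from -0.11 to 0.05. Without the libraries numbered 16 to 18, where 20.4% of all genes were called, Chka (0.28, adjusted p 0.00811), Pemt (-0.43) and Pcyt1b (-0.21) were called. In males the averaged comparison gave no call among the 10 genes, with 6.50% of all genes called. The nearest was Cept1 at -0.17 (SE 0.063, adjusted p 0.247), and the other 9 genes ran from -0.10 to 0.11.

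**Figure D2:**
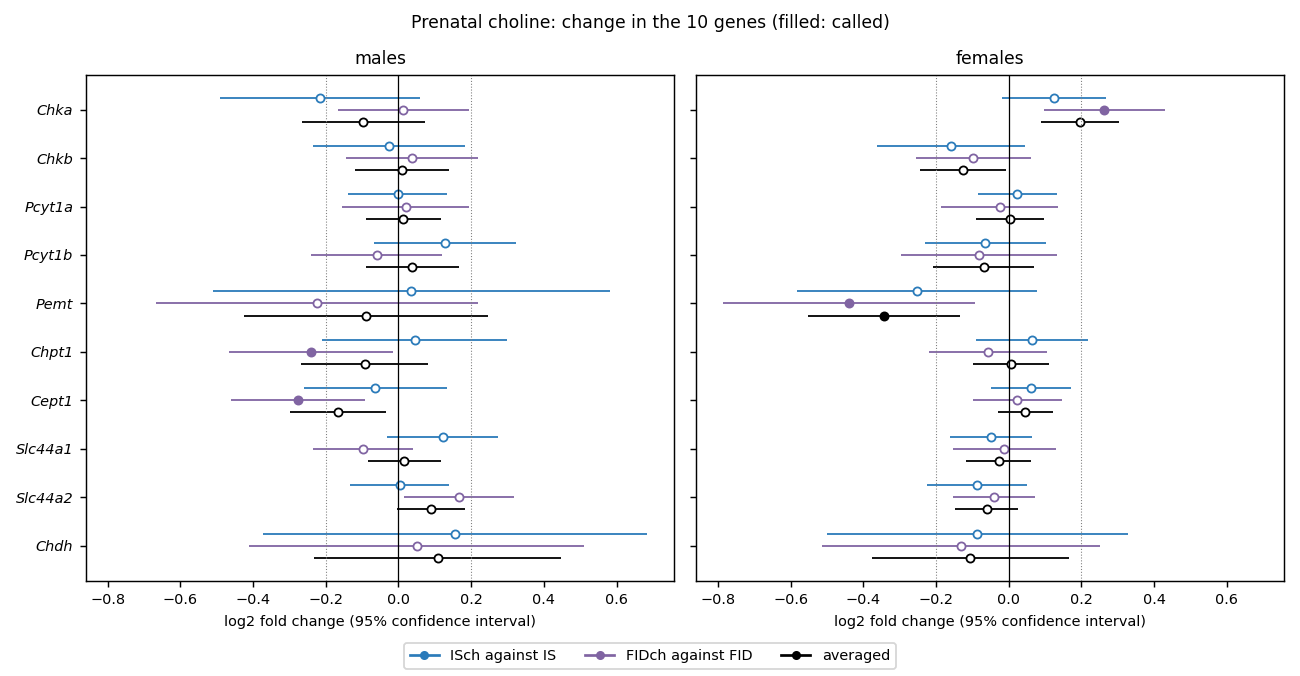
Log2 fold changes of the 10 genes with prenatal choline in males (left) and females (right), with 95% confidence intervals as lines, in ISch against IS, FIDch against FID and their average. Filled points met the criterion and dotted lines mark its fold limit of 0.2: Chpt1 and Cept1 in male FID rats, Chka in female FID rats, and Pemt in female FID rats and on average.

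Whether choline acted differently in FID and IS rats was tested as an interaction. In males 1 of the 10 genes was called, against 14.4% of all genes, and in females none, against 7.33%. Slc44a1 in males was at 147, 148, 148 and 134 CPM in ISch and 116, 138, 134 and 142 in IS, but at 128, 146, 129 and 124 in FIDch and 138, 138, 133 and 149 in FID. Choline thus went with a fitted difference of 0.12 in IS rats and -0.10 in FID rats, neither of them called. The difference between them was -0.21 (SE 0.095, adjusted p 0.300). It missed the criterion in 8 of 21 alternatives, each of them the loss of 1 library: IS replicate 1 (-0.15), ISch replicates 1, 2 and 3, FID replicate 4, and FIDch replicates 1, 3 and 4. For Cept1 and Chpt1 the interaction in males was -0.20 (-0.47 to 0.06) and -0.28 (-0.63 to 0.07), and for Pemt and Chka in females -0.19 (-0.61 to 0.23) and 0.14 (-0.07 to 0.35). The choline effects called in FID rats were therefore not shown to differ from those in IS rats. The other interactions ran from -0.25 to 0.24 in males and from -0.12 to 0.06 in females. Without the female libraries numbered 16 to 18, where 16.3% of all genes were called, Pcyt1a was called at -0.30.

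The averaged choline effect was also compared between males and females, where 15.9% of all genes were called. Chka differed by -0.30 (male minus female, SE 0.096, adjusted p 0.0565), from -0.10 in males and 0.20 in females. Cept1 differed by -0.22 (SE 0.071, adjusted p 0.0597), from -0.17 in males and 0.05 in females. These 2 of the 10 genes were called. The Chka call held in all 38 alternatives. That of Cept1 held in 32 and missed the fold limit at -0.20 to -0.19 without male IS replicate 2, male ISch replicate 2, male FIDch replicate 4, female FIDch replicate 1, the 3 male libraries with other names or the female libraries numbered 16 to 18. For Pemt the difference was 0.25 (95% interval -0.12 to 0.61) and for Chpt1 -0.11 (-0.31 to 0.10). The other 6 genes ran from 0.00 to 0.21, and Pcyt1b was called at 0.24 without the female libraries numbered 16 to 18, where 22.9% of all genes were called. These are differences of sex and sequencing batch together.

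**Figure D3:**
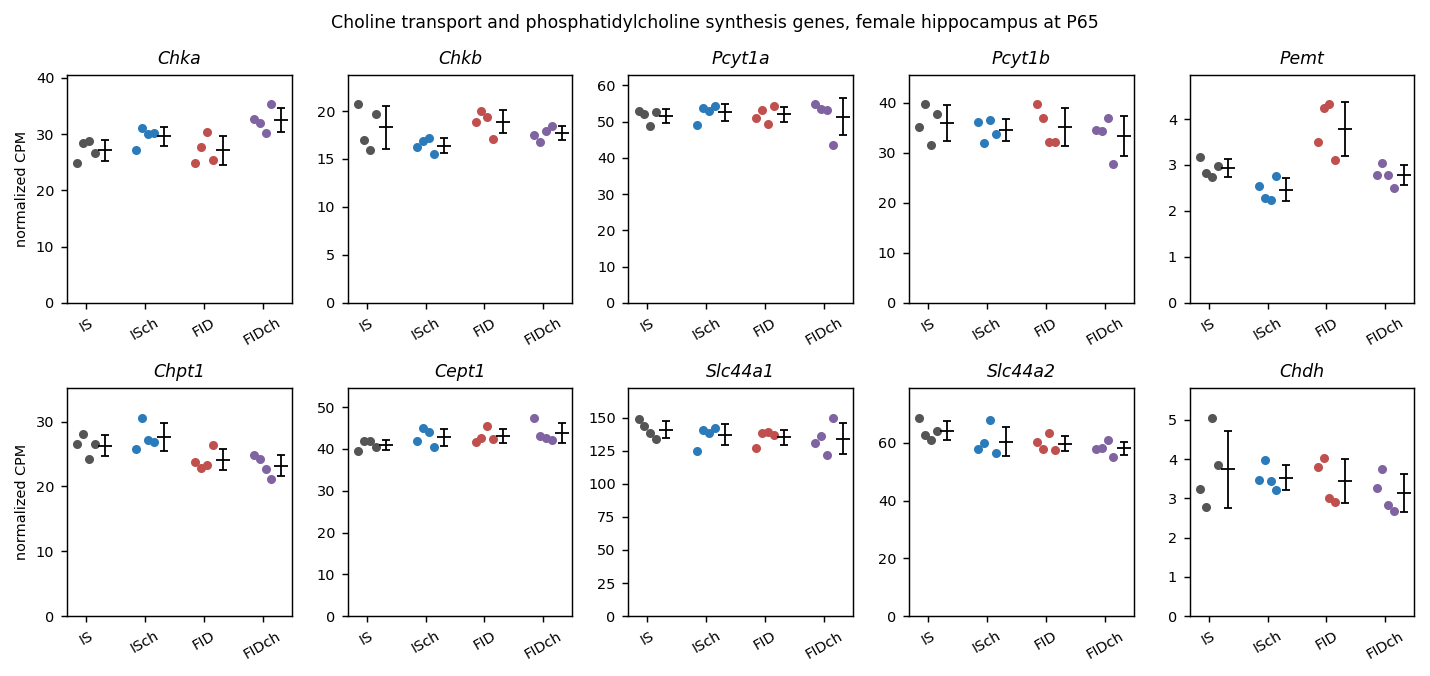
Normalized counts (CPM) of the 10 genes in each female library (points, 4 rats per group), drawn as for males. Chka averaged 32.5 CPM in FIDch and 27.1 CPM in both groups without choline, and Pemt averaged 3.79 CPM in FID and 2.46 to 2.93 CPM in the other groups.

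Early iron deficiency without choline (FID against IS) changed none of the 10 genes in males at the criterion, where 4.62% of all genes were called. Without IS replicate 4, Chka was called at -0.26. In females Pemt was called, against 6.47% of all genes. It was at 3.49, 4.24, 4.32 and 3.1 CPM in FID and 3.18, 2.82, 2.73 and 2.98 in IS, with FID replicate 4 inside the IS range. The rise was 0.37 on the log2 scale (SE 0.15), the adjusted p 0.393 and the exact permutation p 0.057. It was missed with a replicate block and without IS replicate 2, IS replicate 3, FID replicate 2 or FID replicate 3, at 0.30 to 0.36. The female choline comparison in FID rats uses the same 4 FID libraries. In males Pemt was at 4.02, 3.26, 4.12 and 4.08 CPM in FID and 2.61, 2.3, 3.63 and 3.99 in IS, a difference of 0.30 with an interval of -0.17 to 0.78. Slc44a2 differed by -0.14 (-0.29 to 0.01) in males and -0.10 (-0.21 to 0.01) in females, and in males its FID libraries all lay below the IS libraries (exact permutation p 0.029). The other 8 genes ran from -0.15 to 0.10 in males and from -0.13 to 0.07 in females.

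Among choline-supplemented rats (FIDch against ISch), the phosphotransferase genes were again the ones called. In males Chpt1 fell by 0.23 (SE 0.11, adjusted p 0.363) and Cept1 fell by 0.21 (SE 0.082, adjusted p 0.289), with 8.12% of all genes called. The exact permutation p was 0.17 for Chpt1 and 0.086 for Cept1. Both share their FIDch libraries with the choline comparison above. In females Chpt1 was at 24.8, 24.2, 22.7 and 21.2 CPM in FIDch and 25.8, 30.6, 27.1 and 26.8 in ISch. The groups did not overlap (exact permutation p 0.029), and Chpt1 fell by 0.25 (SE 0.074, adjusted p 0.556), the only one of the 10 genes called where 4.57% of all genes were. Without ISch replicate 2, the highest library, the difference was -0.19. Without the libraries numbered 16 to 18, which leaves 1 FIDch library, it was -0.40, and Chka (0.22), Pcyt1a (-0.29) and Pcyt1b (-0.29) were also called, where 15.6% of all genes were. The other 9 genes ran from -0.16 to 0.18 with all libraries. In males the Chpt1 call held in 4 of 14 alternatives, and without ISch replicate 1 or FIDch replicate 1 the difference was -0.15 and -0.13. The Cept1 call held in 10 and was missed without ISch replicate 1, ISch replicate 3, FIDch replicate 2 or FIDch replicate 4, at -0.19 to -0.16. Slc44a1 in males differed by -0.14 (SE 0.060, p 0.031), below the fold limit, and the other 7 genes ran from -0.23 to 0.14.

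Against untreated controls (FIDch against IS), Cept1 in males fell by 0.27 (SE 0.093, adjusted p 0.472) and Chka in females rose by 0.26 (SE 0.068, adjusted p 0.142), 1 gene of 10 in each sex, with 6.12% and 8.98% of all genes called. The 4 male IS libraries had 45.1, 49.5, 38.8 and 44.6 CPM of Cept1, and only IS replicate 3 fell within the FIDch range (exact permutation p 0.086). For Chka the female IS libraries had 24.8, 28.4, 28.7 and 26.6 CPM, all below the 4 FIDch libraries (exact permutation p 0.029). Both calls held in 14 of 14 alternatives. The other 9 genes ran from -0.18 to 0.12 in males and from -0.25 to 0.10 in females. Without the female libraries numbered 16 to 18, which leaves 1 FIDch library and a share of 22.2% of all genes called, the count in females was 5, with Pcyt1a (-0.25), Pcyt1b (-0.39), Slc44a2 (-0.22) and Chpt1 (-0.32) called lower beside Chka (0.37). In females Slc44a2 (-0.14, adjusted p 0.293) and Chpt1 (-0.18, adjusted p 0.318) had unadjusted p of 0.024 and 0.029 with differences below the fold limit, and the Chpt1 call appeared without IS replicate 3, FIDch replicate 1 or FIDch replicate 2. In males Chpt1 was called at -0.28 without IS replicate 1, and Chka at -0.24 without IS replicate 4.

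**Figure D4:**
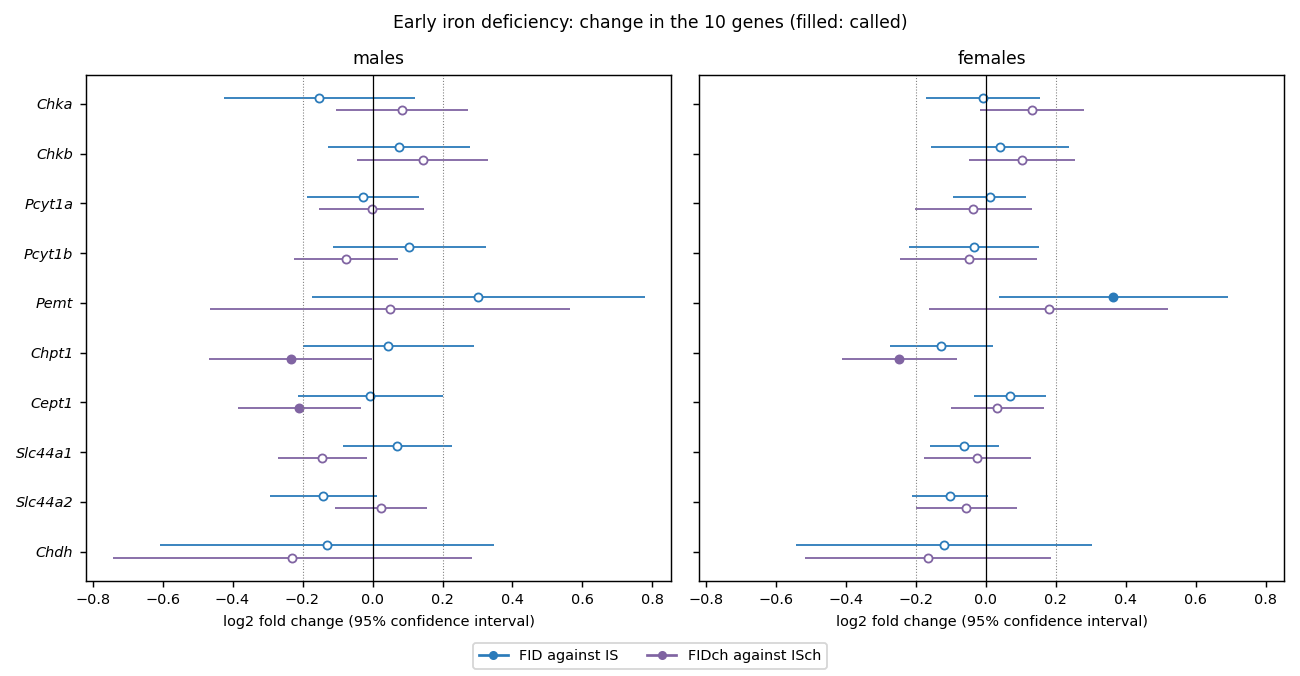
Log2 fold changes of the 10 genes with early iron deficiency in males (left) and females (right), with 95% confidence intervals as lines, without choline (FID against IS) and with it (FIDch against ISch). Filled points met the criterion: Chpt1 and Cept1 in supplemented males, Chpt1 in supplemented females and Pemt in unsupplemented females.

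The levels of the genes not called in a comparison of 2 diets were as follows. Pcyt1a, at the regulated step, averaged 56.9 to 58.6 CPM over the 4 male groups and 51.3 to 52.6 over the female groups, and its fitted differences stayed between -0.05 and 0.03 in every comparison of all libraries. Pcyt1b, the beta form of the enzyme, averaged 33.7 to 36.7 CPM in males and 33.4 to 36 in females. Chkb averaged 26 to 28.7 CPM in males and 16.4 to 18.9 in females. Slc44a1 averaged 132 to 144 CPM in males and 134 to 141 in females, with the highest male library at 149 and the lowest at 116. Chdh averaged 3.22 to 3.96 CPM in males and 3.14 to 3.74 in females, with a coefficient of variation within groups of 9.07% to 28.3%. Its fitted difference reached -0.25 (-0.69 to 0.20) in female FIDch against IS and -0.23 (-0.74 to 0.28) in male FIDch against ISch, both without a call. Its 95% interval or that of Pemt was the widest of the 10 in every comparison. Chdh overlaps Il17rb in the annotation, and Il17rb was called lower with choline in female FID rats (-2.04, adjusted p 0.0311), where Chdh differed by -0.13 (-0.51 to 0.25). The summed level of the 10 genes was 428 to 479 CPM in males and 385 to 423 CPM in females.

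Other genes of choline and phospholipid metabolism were examined by list. Of 18 genes of phosphatidylcholine breakdown and remodelling, in females 3 were called higher and 1 lower with choline on average, where 12.1% of all genes were called, and their median log2 difference was -0.01, near the 0.00 of all genes. Lcat, which encodes lecithin-cholesterol acyltransferase and moves an acyl chain from phosphatidylcholine to cholesterol, was at 15, 11.4, 11.1 and 11.9 CPM in female ISch and 8.59, 8.38, 9.55 and 9.79 in IS. It was at 16.8, 17.8, 13.7 and 13.2 CPM in FIDch and 7.99, 10.9, 8.48 and 8.22 in FID. All 8 choline libraries lay above all 8 others, and Lcat rose by 0.62 (SE 0.090, adjusted p 0.000498). Without the libraries numbered 16 to 18 it was 0.45 (adjusted p 0.00563). In males Lcat was at 8.51 to 10.7 CPM with choline and 8.76 to 13 without, and it fell by 0.25 (SE 0.087, adjusted p 0.206). The effect on Lcat differed between the sexes by -0.87 (male minus female, SE 0.13, adjusted p 0.000108). In females the summed astrocyte markers were at 3560 to 4000 CPM in ISch and 3380 to 3710 in IS. They were at 3400 to 3580 CPM in FIDch and 3270 to 3490 in FID. Their part in the Lcat result was not tested.

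The second gene of that list by size in females was Pla2g4a, the cytosolic phospholipase A2 gene, which rose by 0.34 (SE 0.12, adjusted p 0.0898) on average and by 0.58 (adjusted p 0.0721) in FID rats. Its FIDch libraries had 4.77 to 5.14 CPM and its FID libraries 2.68 to 4.08. Without the libraries numbered 16 to 18 the average was 0.34 with p 0.074. The other 2 called genes were chosen after their values were seen. Pnpla7, a lysophospholipase gene, rose by 0.26 (adjusted p 0.00956), and was 0.19 without those libraries. Enpp6, whose enzyme releases phosphocholine from choline lipids and which marks newly forming oligodendrocytes, fell by 0.33 (SE 0.075, adjusted p 0.0108), and fell by 0.30 without them. It was at 5.92 to 8.91 CPM in the 8 choline libraries and 7.45 to 9.41 in the 8 others. Summed markers of oligodendrocyte precursors were at 182 to 212 CPM in ISch and 205 to 219 in IS. They were at 170 to 199 CPM in FIDch and 208 to 213 in FID, and their part in the Enpp6 result was not tested. In female IS rats Pnpla7 rose by 0.28 and Lcat rose by 0.44. In males the called genes of this list in FID rats were Gpcpd1, a glycerophosphocholine phosphodiesterase gene, which fell by 0.23 (adjusted p 0.109), and Lypla1, which fell by 0.22 (adjusted p 0.243) and kept its call in 8 of 14 alternatives. In male IS rats the called gene was Lcat, which fell by 0.33 (adjusted p 0.428).

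Choline oxidation and betaine use was covered by 5 genes, of which 3 could be tested in females and 2 in males on average. Aldh7a1, whose enzyme oxidises betaine aldehyde to betaine, the step after choline dehydrogenase, was at 50.2 to 58.1 CPM in the 8 female choline libraries and 42 to 48.4 in the 8 others. The 2 sets did not overlap, and Aldh7a1 rose by 0.25 (SE 0.041, adjusted p 0.00134), with 0.25 in IS rats and 0.23 in FID rats. Without the libraries numbered 16 to 18 it rose by 0.22 (adjusted p 0.0145). In males its groups averaged 46.7 to 50.3 CPM and it was not called, and the effect differed between the sexes by -0.26 (adjusted p 0.0176). The part of the astrocyte marker levels given above in the Aldh7a1 result of females was not tested. Bhmt, which uses betaine to remethylate homocysteine, was at the edge of detection, with 0 to 29 counts per female library. It fell by 1.85 on average (adjusted p 0.0743), with -3.40 without ISch replicate 4, the only ISch library over 0.0544 CPM, and -0.89 and no call without the libraries numbered 16 to 18. The remaining gene, Sardh, was called higher in male FIDch against IS at 0.30 (adjusted p 0.511).

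**Figure D5:**
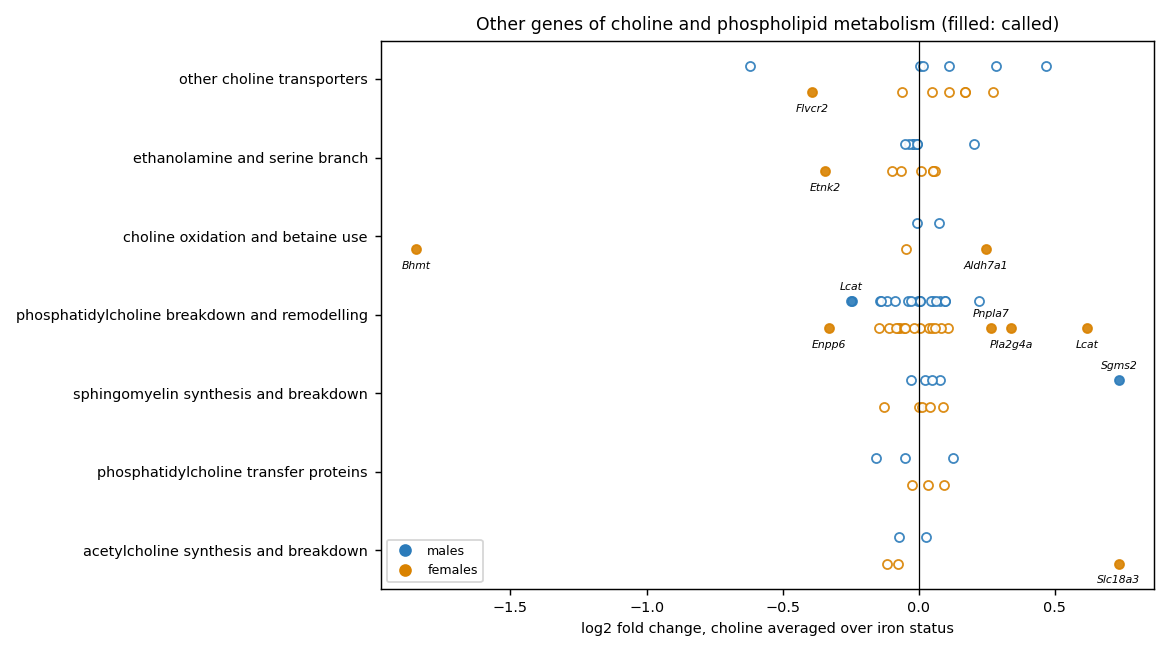
Log2 fold change with prenatal choline, averaged over iron status, of each tested gene (point) of 7 lists of choline and phospholipid metabolism in males (blue) and females (orange). Filled and named points met the criterion: Lcat rose by 0.62 in females and fell by 0.25 in males.

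Of 11 other choline transporter genes, 7 could be tested in females and 6 in males. Flvcr2, which encodes a choline transporter of the blood-brain barrier, was called lower in females on average (-0.39, adjusted p 0.0644) and in FID rats (-0.54, adjusted p 0.183), where it was at 1.71 to 2.75 CPM in FIDch and 2.84 to 4.23 in FID. Without the libraries numbered 16 to 18 the values were -0.62 and -1.02. The 4 endothelial markers with entries summed to 142 to 161 CPM in female FID and 125 to 151 in FIDch. Of these 1 of 4 was called lower, where 12.7% of all genes were called. The part of these markers in the Flvcr2 result was not tested. Slc44a5 in males was higher in FID than IS, called at 0.40 (adjusted p 0.786), and its interaction was -0.64 (adjusted p 0.281), which was -0.28 and not called without the 3 libraries with other names.

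Of 7 genes of the ethanolamine and serine branch, Etnk2, an ethanolamine kinase gene, was called lower in females on average (-0.35, adjusted p 0.0400) and in IS rats (-0.45, adjusted p 0.0995). It was at 4.01 to 4.99 CPM in ISch and 5.1 to 6.47 in IS, without overlap, and the averaged value was -0.24 without the libraries numbered 16 to 18. The effect on Etnk2 differed between the sexes by 0.54 (adjusted p 0.0293), and in males it was not called. In the male interaction Pcyt2, the ethanolamine counterpart of the cytidylyl transferases, was called at 0.33 (adjusted p 0.211). In male FID against IS Selenoi, an ethanolamine phosphotransferase gene, was called at 0.24 (adjusted p 0.786), which was 0.14 without IS replicate 1. Of 5 sphingomyelin genes, Sgms2, whose enzyme moves phosphocholine from phosphatidylcholine to ceramide, was called higher with choline in males on average (0.74, SE 0.21, adjusted p 0.108), in FID rats (0.85) and in IS rats (0.62, kept in 5 of 14 alternatives). Its raw counts were 6 to 31 per male library. In females Smpd2, a neutral sphingomyelinase gene, was lower in FID than IS (-0.32, adjusted p 0.0697) and higher in FIDch than FID (0.23, adjusted p 0.182, sharing the FID libraries). Of 3 transfer protein genes, Stard10 was called higher in female ISch than IS (0.27, adjusted p 0.253) and in FID than IS (0.24, adjusted p 0.260). Of 4 acetylcholine genes, Slc18a3, the vesicular acetylcholine transporter gene, was called higher in females on average (0.73, adjusted p 0.173) at 2 to 16 counts per library, and kept that call in 10 of 21 alternatives.

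For each of the 10 genes, the most similar of 13861 genes was sought by the smaller of the Pearson correlations of log2 CPM over the 16 male and the 16 female libraries, which share diet groups within a sex and library preparation. The closest matches were to Pcyt1b: Myt1l (r 0.90 in males, 0.85 in females), Uhmk1 (0.82, 0.85) and Fzd3 (0.81, 0.85). Slc44a1 was followed by Mal2 (0.74, 0.74), Chpt1 by Pank3 (0.76, 0.74), Pcyt1a by Usp31 (0.70, 0.74), Slc44a2 by Col4a1 (0.66, 0.78) and Cept1 by Dnajb4 (0.69, 0.62). The low genes had the weakest matches, Lrriq1 for Pemt (0.57, 0.60) and Adgrl4 for Chdh (0.54, 0.45). Chka was closest to the gene with the identifier ENSRNOG00000062158 (0.73, 0.71). Among the 10 genes themselves no pair reached 0.60 in both sexes. Chka and Pcyt1b were opposed (-0.44 in males, -0.55 in females), as were Chka and Pemt (-0.50, -0.36), while Pcyt1a and Pcyt1b went together (0.38, 0.50).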

How the data were processed

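RNA-seq of the hippocampus was performed on 32 Sprague-Dawley rats at P65, with 16 males in sequencing batch I and 16 females in batch II. The authors deposited raw counts per gene, one table per sex, on build Rnor_6.0. Per the labels, the tools were FastQC, Trimmomatic, HISAT2 and featureCounts from Subread. Strand and multi-mapping settings were not given in the sources used here. Columns were matched to rats by their labels, and none of the 48 pairs of libraries within a group was a duplicate. Pairs across groups were not checked. The methods describe separate litters for males only, and they take the RNA-seq from an earlier study. Separate litters are therefore not established for these libraries, so p-values in either sex measure the spread between these samples.

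From the deposited counts, CPM with TMM library sizes and edgeR (4.0.16) quasi-likelihood tests in R (4.3.3) were computed after filterByExpr, with limma (3.58.1). Pairs of groups were fitted on their 8 libraries, the averaged and interaction terms on the 16 of a sex, and the sex difference on all 32. P-values were adjusted by Benjamini-Hochberg over all genes tested. Single genes were also compared by an exact 2-sided permutation test of CPM. The code was tested on simulated data. Depth was 3515806 to 9517503 counts in males and 18439999 to 26616318 in females. Alternatives were RLE size factors, DESeq2 (1.42.0), no filter, a replicate block, the 4 groups in one fit, each library left out, and, added after the data were seen, the libraries that stood apart left out.

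The 10 genes, the other lists and the tests were chosen with earlier results of these data known. All 10 genes were tested in every comparison, and those not named singly there are given by the range of their differences. Of each other pathway list, at most the 2 called genes with the largest change are named in a choline comparison and at most 1 elsewhere, and exceptions are stated. Likeness used the smaller of the Pearson correlations in males and females, and 1 such match and 1 gene of another list are not reported here. Promoter sequences and overlaps came from RefSeq on GRCr8, which is not the build of the counts, and were used for names, neighbours and sequence only. Marker genes called among those tested were also counted in the averaged choline comparison. In females, where 12.1% of all genes were called, they were 2 of 6 astrocyte, 0 of 9 oligodendrocyte, 0 of 6 neuron, 0 of 3 blood, 2 of 4 meningeal and 2 of 4 hippocampal field genes. In males, where 6.50% of all genes were called, they were 0 of 6, 1 of 9, 0 of 6, 0 of 3, 1 of 4 and 0 of 4. This tally leaves out the microglial, precursor, endothelial and choroid plexus lists.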

Additional observations from a re-analysis of the deposited data

Results flagged for a closer look

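Within groups of 4 rats, 4 of the 80 sets of values (10 genes in 8 groups) had 1 library far from the others, and chance gives about 1 in 20. Chka was at 33.3 CPM in male FIDch replicate 2, the shallowest library, and at 38.7 to 39.5 CPM in the other 3 rats. Pemt was at 3.26 CPM in male FID replicate 2 and at 4.02 to 4.12 CPM in the others. Slc44a1 was at 134 CPM in male ISch replicate 4 and at 147 to 148 CPM in the others. Pcyt1a was at 43.7 CPM in female FIDch replicate 4, the only FIDch female outside the libraries numbered 16 to 18, and at 53.1 to 54.8 CPM in those 3.

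By the test of the difference itself, choline effects met the criterion for differing between groups for 1 of 10 genes in the male interaction, where 14.4% of all genes did, and for 2 of 10 between the sexes, where 15.9% did. The effect on Slc44a1 in males was lower in FID than in IS rats by a log2 difference of -0.2101 (adjusted p 0.300, edgeR), a call missed in 8 of 21 alternatives. The averaged effect was lower in males than in females for Chka, at -0.2991 (adjusted p 0.0565), and for Cept1, at -0.2171 (adjusted p 0.0597), and the sexes were sequenced in different batches. None of these had an adjusted p under 0.05.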

How the results depend on the processing

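All 10 genes were tested in every comparison and gave 14 called values. In the same comparisons 4.57% to 15.9% of all genes tested were called. Under 257 alternative values of those 14, 213 were still called, 44 were not and 0 changed direction. The alternatives share most of their libraries and cover only values that were called to begin with. In the male FID choline comparison the count of called genes was 2, and it was 1 in DESeq2, with a replicate block and with the 4 groups in one fit. In male FIDch against ISch it was 2, and 1 with RLE size factors, in DESeq2, with the block, with the 4 groups in one fit and without the 3 libraries with other names. In female FID against IS it was 1, and 0 with the block. Without the female libraries numbered 16 to 18, chosen after the data were seen, it went from 1 to 3 on average, from 0 to 1 in the interaction, from 1 to 4 in FIDch against ISch and from 1 to 5 in FIDch against IS. Here female FIDch is a single library, assumed to vary like the other groups. That library is replicate 4, which differed most from the rest of its group, so these counts also reflect what is particular to it. In the sex difference it went from 2 to 1 without the libraries with other names. With 1 library left out at a time, the counts ran in males from 0 to 1 for choline in IS rats, 1 to 2 for choline in FID rats, 0 to 3 for the interaction, 0 to 1 for FID against IS, 0 to 2 for FIDch against ISch and 1 to 2 for FIDch against IS. In females they ran from 0 to 1 for choline in IS rats (Chkb at -0.22 without IS replicate 3), 1 to 2 for choline in FID rats, 1 to 2 on average, 0 to 1 for FID against IS, 0 to 1 for FIDch against ISch and 1 to 2 for FIDch against IS, and in the sex difference from 1 to 2. In the male interaction the additional genes were Chka (0.35) and Chpt1 (-0.36) without IS replicate 4, Cept1 (-0.26) without FID replicate 3 and Slc44a2 (0.21) without FIDch replicate 1. Over all genes, the count for choline in male IS rats was 1125, 679 without the libraries with other names, and 815 to 1811 with 1 library left out, the highest without IS replicate 3. For male FID against IS it was 640, 1023 with no filter, and 392 (without IS replicate 1) to 1236 (without IS replicate 3). For male FIDch against IS it was 838, and up to 1267 without IS replicate 3. Without the female libraries numbered 16 to 18 it was 3860 for choline in FID rats, 3185 on average, 2538 in the interaction, 2350 for FIDch against ISch and 3412 for FIDch against IS. For female FIDch against ISch it was 663, and 1025 without FIDch replicate 4. The causes of these changes were not tested. Same-numbered rats did not deviate together (correlations of -0.15 to 0.22, and no comparison with all 4 pairs over 0.1), so the replicate block rests on numbers only. Of 57 called values of the other lists, 972 of 1129 alternative values were still called, 157 were not and 0 changed direction. Depth limited Pemt and Chdh in males, at 11 to 45 counts per library.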
